A study of Homo sapiens with 6 samples.

Results

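A pair of RNA labelling methods for 3′ expression microarrays was compared in HT-29 cells, an established human colon adenocarcinoma line. The Express group held 3 arrays made from 100 ng of RNA with the 3′ IVT Express kit, and the One-Cycle group held 3 arrays made from 3 ug with the One-Cycle Target Labeling kit. These 6 arrays of 6 in the series were chosen by the amount and kit in their labels. Each group held 1 array of wild type HT-29 and 1 array each of the variants BR100 and BR200, which are resistant to the proteasome inhibitor bortezomib. Per the labels' protocol, which is the same on all 6 samples, bortezomib was raised stepwise from 20 to 300 nM over 7 months, and clonal isolates were taken by limiting dilution under 100 or 300 nM and kept for a further 4 months. Every array used total RNA, and each variant stands for 1 line. The labels do not say whether both arrays of a variant came from the same RNA or culture. Kit and RNA amount changed together and cannot be told apart, so "Express" and "One-Cycle" below stand for kit and amount together.

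Both kits start from an oligo(dT) primer that also carries a promoter for T7 RNA polymerase. Reverse transcription begins at the poly(A) tail and runs toward the 5′ end of the transcript, a second strand is made, and T7 polymerase then transcribes it into biotin-labelled complementary RNA that binds the array. A piece of a transcript far from the primed site can therefore be copied less often than a piece near it. Most probe sets on this kind of array lie near the 3′ end of a gene model, many genes have several, and some probe sets lie within introns, at alternative ends or in upstream exons. The suffix of a probe set name states what its probes match: "_at" a single transcript, "_a_at" alternative transcripts of 1 gene, "_s_at" probes shared by several transcripts, and "_x_at" probes of which some may bind unrelated sequence.

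The values were log2 expression after GCRMA, a method that models background from probe sequence. Of 54675 probe sets, 62 were controls, and 22317 reached a log2 value of 4 on at least 2 of 6 arrays and were tested. Between 21164 and 21603 probe sets reached 4 on each array, and the correlation between the kits within a variant was 0.965 to 0.970 across the tested probe sets. Colon epithelial markers reached 4 for 9 of 11 genes, among them EPCAM, a cell adhesion protein, at 14.6 to 14.97 and KRT18, an epithelial keratin, at 15.3 to 15.4. The intestinal transcription factor gene CDX2 stayed at the lowest value of the arrays, 2.23, on all 6, and CDX1 at 2.91. Of the markers of other cell types, 1 of 6 fibroblast genes, 2 of 5 blood cell genes and 1 of 5 endothelial genes reached 4. The blood cell marker LYZ was among them at 14.34 to 14.84, near the level of EPCAM. The others, CD14, COL1A1 and ENG, read 6.76 or below.

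Ribosomal RNA gave the widest difference between the kits. Probe sets for 18S rRNA, the RNA of the small ribosomal subunit, which has no poly(A) tail of the messenger kind, were high on all Express arrays. The 18S probe set nearest the 3′ end read 14.47 in BR100, 13.73 in BR200 and 14.68 in wild type with Express, against 8.42, 8.59 and 8.32 with One-Cycle. The 5′ probe set of 18S read 14.37, 13.65 and 14.02 against 7.02, 6.19 and 5.44 in the same order. No One-Cycle array came within 5 log2 units of an Express array at either position. The mean difference was 5.85 ± 0.64 at the 3′ end (SD over 3 pairs, 57.6-fold), 5.86 ± 0.70 in the middle (58.2-fold) and 7.80 ± 0.68 at the 5′ end (223-fold). The probe set for the 5′ part of 28S rRNA, from the large subunit, read 13.90, 13.32 and 13.05 with Express and 9.61, 9.63 and 9.25 with One-Cycle, a difference of 3.93 ± 0.32 (15.2-fold). The middle part of 28S differed by 0.44 ± 0.27, and its 3′ probe set was at the lowest value on all 6 arrays. With 3 pairs the exact two-sided sign-flip test cannot go below p = 0.25. Each of these probe sets reached it except the 3′ one of 28S, which did not differ between the kits. Both tested probe sets that name RNA45SN5, the precursor of these ribosomal RNAs, were called higher with Express, 225762_x_at by 2.42 (SE 0.12, limma adjusted p = 0.00282) and 225767_at by 1.05 (SE 0.09, limma adjusted p = 0.00573).

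The gap between the 3′ and the 5′ probe set of a transcript shows how evenly its length was represented. ACTB, which encodes the cytoskeletal protein β-actin, read 12.0025, 11.75 and 10.30 at its 5′ probe set with Express in BR100, BR200 and wild type, against 13.51, 13.58 and 12.01 with One-Cycle. Each Express array was below the One-Cycle array of its variant. The kit difference of ACTB was −0.39 at the 3′ end, −0.75 in the middle and −1.68 at the 5′ end, so that its gap widened from 2.21 log2 units with One-Cycle to 3.49 with Express (by 1.29 ± 0.16). GAPDH, which encodes a glycolytic enzyme, had gaps of 0.30 and 0.24, which differed by 0.06 ± 0.03. The gap was wider with Express in all 3 pairs for both ACTB and GAPDH, with an exact sign-flip p of 0.25, the smallest possible.

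Spiked RNAs from Bacillus subtilis carry a poly(A) tail and pass through the labelling reaction with the cell's RNA, so they have the same position readout without the cell. Their gaps moved both ways. The dap gap was 2.80 with Express and 1.56 with One-Cycle, and the thr gap was 2.76 and 1.18, differences of 1.24 ± 0.27 and 1.58 ± 0.23. The lys gap went the other way, 1.99 against 2.37, a difference of −0.38 ± 0.23. The exact sign-flip p was 0.25 for each of these 3 spikes, all of whose pairs had one sign. Second sets of their probe sets gave 1.17 ± 0.27 for dap, 2.27 ± 0.66 for thr and −0.64 ± 0.09 for lys. The 3 pairs of each second set also had one sign (exact sign-flip p = 0.25). The phe gap was 0.32 against 0.42 with pairs of both signs (exact p = 0.5), and a second set of phe probe sets gave −0.41 against −0.14 with all 3 pairs of one sign (exact p = 0.25). In level, 8 of 8 polyA probe sets at the 3′ end were higher with Express in the mean, by 1.05 to 1.75 with a median of 1.28, against 4 of 8 at the 5′ end. The hybridization controls bioB, bioC, bioD and cre enter after labelling and never pass through either kit, yet 18 of 18 of their probe sets read higher with Express in every pair, by 0.32 to 1.11 with a median of 0.72. An offset of that kind between the groups' control signals thus stood beside every level of a spike. Its part in the cell genes' values was not tested. Among the hybridization controls, the gap of 2 probe sets of one transcript differed by −0.04 for bioC and bioD and by 0.10 for cre. The bioB gap differed by 0.35 ± 0.04 with all 3 pairs of one sign, though bioB never passes through labelling. That is close in size to the −0.38 of the first lys set and smaller than the −0.64 of the second. A second set of bioB probe sets gave 0.10.

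**Figure D1:**
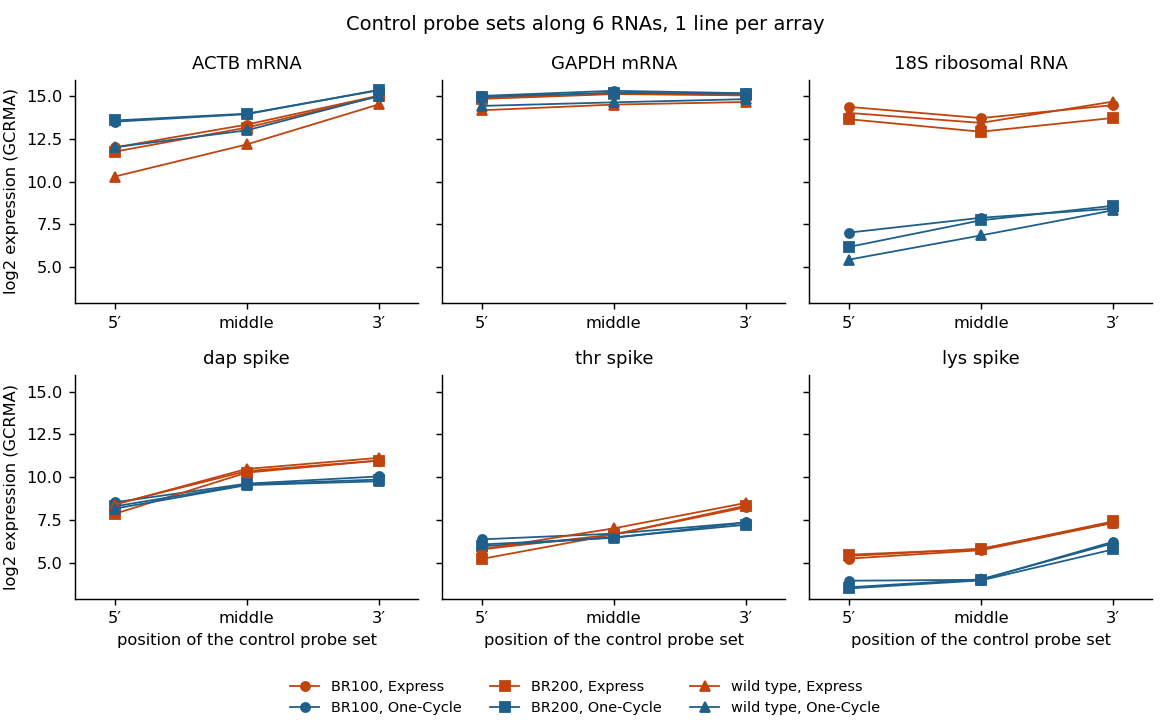
Log2 expression (y) of the control probe sets along ACTB and GAPDH mRNA, 18S ribosomal RNA and the dap, thr and lys spikes by position (x), with 1 line per array, Express in red and One-Cycle in blue. The 18S lines of the kits lie 5.85 to 7.80 apart in the mean, the Express lines of ACTB, dap and thr drop further toward the 5′ end, and the GAPDH lines lie close together.

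Over the whole array 7625 of 22317 probe sets (34.2%) were called between the kits (limma with cell variant as a block, Benjamini-Hochberg adjusted p under 0.05), with 4146 higher with Express (18.6%) and 3479 lower (15.6%). Most of these differences were small: the median size over all tested probe sets was 0.25, and 1757 called probe sets differed by 2-fold or more, 677 higher and 1080 lower. At 4-fold or more, 133 were higher and 278 were lower. The count rests on having all 3 pairs. Without the BR100 pair 1796 were called, without the BR200 pair 1602 and without wild type 4270, and without BR100 or BR200 the lower calls outnumbered the higher ones (983 against 813, and 891 against 711). As shares of all tested, 3.64% were higher and 4.4% lower without BR100, 3.19% and 3.99% without BR200, and 9.83% and 9.31% without wild type. Large differences were commoner at low levels: 12.1% of probe sets with a mean level of 4 to 6 differed by 2-fold or more, 5.99% at 8 to 10 and 0.996% at 12 or above, against 8.29% of all tested.

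**Figure D2:**
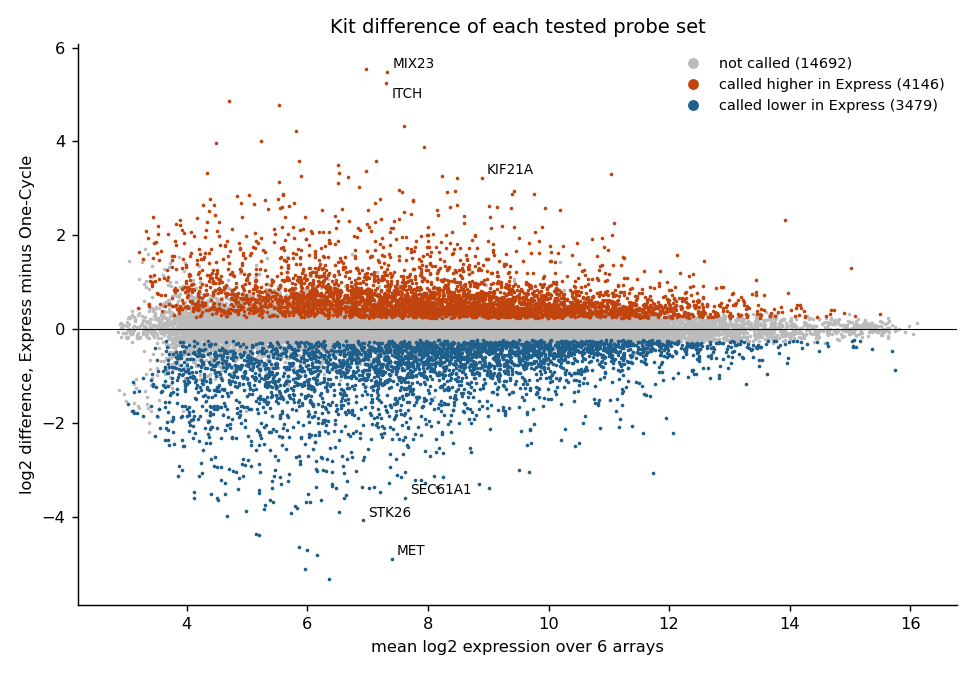
Kit difference of each of the 22317 tested probe sets (y, log2, Express minus One-Cycle) against its mean log2 expression over 6 arrays (x), coloured by limma call. Differences past 2 log2 units lie mostly below a mean level of 10, and the named points are among the largest that reached 4 on all 6 arrays.

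Among probe sets that name 1 gene and reached 4 on all 6 arrays, the largest rise was at MIX23 (235244_at), which read 10.53, 10.06 and 9.59 with Express in BR100, BR200 and wild type and 4.84, 4.42 and 4.48 with One-Cycle. The groups were more than 4 log2 units apart, and the difference was 5.48 (SE 0.14, 44.6-fold, limma adjusted p = 0.00179). It is the only probe set of that gene on the array. ITCH, a ubiquitin ligase, followed at 235057_at with 10.07, 9.93 and 9.78 against 4.25, 5.42 and 4.38, a difference of 5.24 (SE 0.28, limma adjusted p = 0.00315). The next rises among such probe sets were 3.36 at JAK1, a kinase of cytokine receptors, 3.33 at DDX17, an RNA helicase, 3.26 at ATXN7L3B, 3.23 at KIF21A, a kinesin motor, 3.22 at ATP6V0E1, a proton pump subunit, and 3.11 at DSC2, a desmosomal cadherin. The splicing regulator HNRNPL rose at both of its probe sets, by 2.95 (SE 0.07) at 202072_at, with 10.90, 10.74 and 11.08 against 8.03, 7.69 and 8.15, and by 1.93 (SE 0.06) at 35201_at (limma adjusted p = 0.00172 and 0.00208). The other rises among the first 15 ran from 3.04 at EEF1D, a translation elongation factor, through MAP4, ASPM, BHLHE41 and TAF15 to 2.87 at PRPF6, a spliceosome protein.

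The largest fall among probe sets of 1 gene that reached 4 on all 6 arrays was at MET, the receptor for hepatocyte growth factor. Its probe set 211599_x_at read 4.93, 4.51 and 5.43 with Express and 9.69, 9.85 and 9.99 with One-Cycle, a difference of −4.89 (SE 0.17, 29.6-fold lower with Express, limma adjusted p = 0.00236). A second MET probe set, 213807_x_at, was below 4 on all 3 Express arrays and read 8.09, 8.17 and 8.30 with One-Cycle. The MET probe set with the highest level, 203510_at, averaged 13.56 with Express and 13.61 with One-Cycle and did not pass the test (difference −0.05, SE 0.06, limma adjusted p = 0.557). The same gene thus gave a 29.6-fold difference or none past the threshold, depending on the probe set read. STK26, a protein kinase, fell by 4.08 at 224407_s_at, while its 218499_at differed by −0.17. SEC61A1, the channel subunit of the endoplasmic reticulum translocon, read 5.96, 5.70 and 5.79 against 9.37, 9.03 and 9.86 at 222385_x_at, a difference of −3.60 (SE 0.18, limma adjusted p = 0.00282), and its 217716_s_at differed by −0.26 (limma adjusted p = 0.0754). BCL2L1, whose splice forms encode a survival and a death protein, fell by 3.38 at 206665_s_at and 3.03 at 215037_s_at, differed by 0.06 at 212312_at and rose by 1.04 at 231228_at. LARP1, an RNA-binding regulator of translation, fell by 3.35 and 3.29 at 210966_x_at and 212193_s_at beside −0.18 at 212137_at.

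PLK1 and EPHX1 had 1 tested probe set each, the only one of each on the array. PLK1, a mitotic kinase, read 4.84, 4.84 and 4.63 with Express and 8.36, 8.02 and 7.81 with One-Cycle, and fell by 3.30 (SE 0.10, limma adjusted p = 0.00208). EPHX1, an epoxide hydrolase of xenobiotic metabolism, read 5.09, 4.42 and 6.49 against 8.76, 8.42 and 8.96, and fell by 3.38 (SE 0.33, limma adjusted p = 0.0074). In both genes the highest Express value was below the lowest One-Cycle value. The other falls among the first 15 ran from 3.91 log2 units at SCYL2 to 3.34 at CYB5R3, a cytochrome b5 reductase, and included the exocyst subunit gene EXOC5, ERLIN1, the glucosidase subunit gene PRKCSH, the actin-binding TWF1, ESYT2 and the helicase gene DDX42. Of 11 tested colon marker probe sets 3 were called higher with Express, at KRT19 by 0.29, KRT20 by 0.25 and LGALS4 by 0.55, and 1 was called lower. The epithelial adhesion gene CDH1 held the lower call at 201130_s_at, which read 3.35, 2.78 and 4.11 with Express and 8.41, 8.63 and 8.52 with One-Cycle (limma adjusted p = 0.00365). With 2 Express arrays below 4 the size of that fall is limited by background, while its other tested probe set, 201131_s_at, differed by −0.17.

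Seen gene by gene, the probe set that moved most was seldom the one with the highest level. The probe set with the highest level is used here as a rule of choice only, since signal depends on the probes as well as on the RNA. Of the 15 genes with the largest falls, 12 had another tested probe set at a higher level, and that probe set differed by less than 0.5 between the kits in all 12 and was not called in 9. Of the 15 largest rises, 11 had another probe set at a higher level, 10 of these 11 differed by less than 0.5 there, and HNRNPL was the exception. Over all 8674 tested probe sets that were not the highest of their gene, the highest one differed by less than 0.5 in 7247 and was not called in 5918, so these shares were near the background and are given as a description. Over all genes with 2 or more tested probe sets, 225 probe sets fell by 4-fold or more, and 21 of them (9.33%) were the highest of their gene. At 4-fold or more upward the share was 17 of 98 (17.3%). Of all 13755 tested probe sets of these genes, 36.9% were the highest of their gene. For the 204 large falls at a lower-level probe set, the gene's highest probe set had a median difference of −0.08 and was not called in 147, beside the 5918 of 8674 above.

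Some genes had probe sets called in opposite directions. Of 5081 genes with 2 or more tested probe sets, 1321 had at least 2 that were called, and 475 of these (36.0%) had calls in both directions, against 846 with calls in 1 direction. No chance level was computed for this share. Of all tested probe sets 34.2% were called. The count of 475 fell to 46 without the BR100 pair, 33 without the BR200 pair and 175 without wild type, and to 161 without "_s_at" and "_x_at" probe sets. The gap between the highest and lowest kit difference within a gene had a median of 0.52 log2 units over the 5081 genes, and it reached 1 in 1330 genes (26.2%). The spread of the kit difference among probe sets of a gene (SD 0.635) was nearly that among all these probe sets (SD 0.677). Among the 475 genes, 164 had opposite calls at least 2 log2 units apart, and 19 at least 4.

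The 10 genes with the widest gap between opposite calls were ranked by fitted differences, whose sizes are limited by background where arrays of a kit lie below 4, as in BHLHE41, WASF2, SETD5, YIF1B, RAB12 and MCL1. ITCH, which rose at 235057_at, fell by 1.62 at 236235_at (4.96, 6.02 and 6.01 with Express against 6.94, 7.49 and 7.41, limma adjusted p = 0.00609). JAK1 rose by 3.36 at 1552611_a_at (8.001, 8.25 and 9.71 with Express against 4.79, 5.18 and 5.90) and fell by 2.24 at 1552610_a_at (6.13, 5.43 and 7.52 against 8.41, 8.23 and 9.16). Its other probe set, 201648_at, averaged 10.32 and 10.43 and was not called (limma adjusted p = 0.253). On both calls the 3 Express values stood on 1 side of all 3 One-Cycle values. BHLHE41, a circadian repressor, rose by 2.91 at 223185_s_at, fell at 231243_s_at from 6.11, 6.63 and 6.17 with One-Cycle to near background on all 3 Express arrays, and differed by 0.06 at 221530_s_at. WASF2, a regulator of actin branching, rose at 224563_at (9.84, 9.30 and 10.06 against 4.34, 3.19 and 5.08) beside a fall of 0.37 at 224562_at and −0.01 at 221725_at. MCL1, an anti-apoptotic BCL2 relative with a short-lived messenger, fell at 200796_s_at (4.18, 3.62 and 3.38 against 7.61, 7.25 and 6.48), rose by 1.87 at 214057_at and differed by −0.10 at 200797_s_at, where it read 12.28, 12.23 and 12.81 against 12.45, 12.30 and 12.88. SETD5, YIF1B, CUX1 and RAB12 also had calls in both directions.

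MALAT1, a long nuclear noncoding RNA that is very abundant in many cells, had calls in both directions along its many probe sets. Of its 12 tested probe sets, 226675_s_at rose by 2.32 (14.92, 14.94 and 15.36 with Express against 12.24, 12.20 and 13.84) and 224567_x_at by 1.31, while 228582_x_at fell by 2.93 (4.89, 5.32 and 7.51 against 8.65, 8.08 and 9.77) and 224559_at by 2.43. Probe set 1558678_s_at read 14.57, 14.65 and 15.57 with Express and 14.30, 14.69 and 15.57 with One-Cycle and did not pass the test. Wild type was the highest of the 3 variants at each of these 5 probe sets within each kit. The order of wild type against the resistant variants was thus read alike by both kits at probe sets whose kit differences were opposite.

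**Figure D3:**
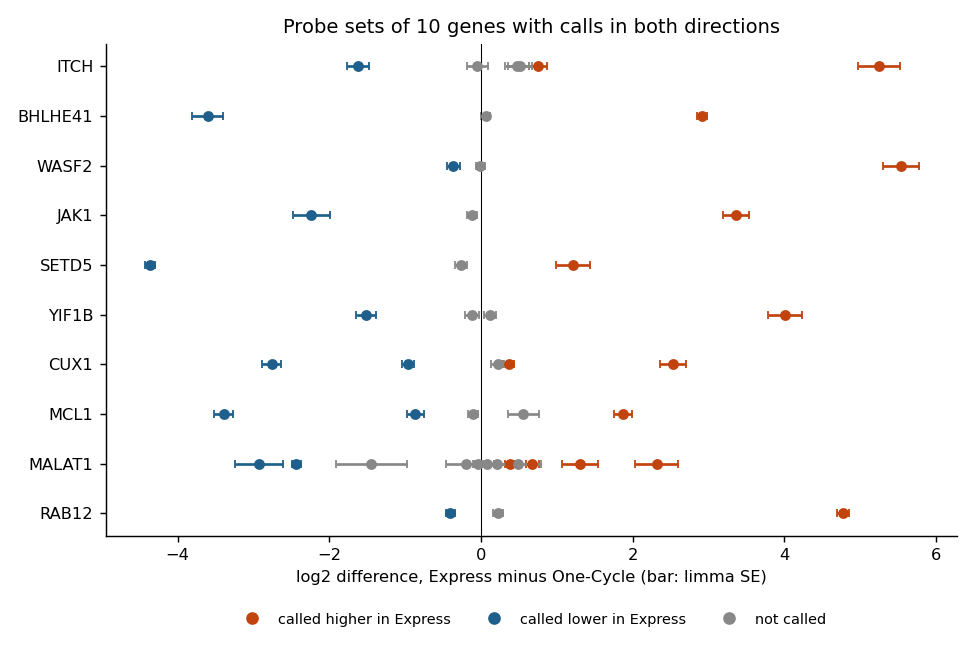
Kit difference (log2, Express minus One-Cycle, bars are limma SEs) of every tested probe set of the 10 genes with the widest gap between opposite calls. Each gene has at least 1 red point (called higher with Express), 1 blue point (called lower) and a grey point near 0 that was not called.

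The class of the probe set went with the direction of the difference. The 12765 "_at" probe sets were called higher in 19.5% and lower in 11.7%, with a median difference of 0.07. The 410 "_a_at" probe sets had the reverse balance, 14.1% higher and 32.0% lower (median −0.08), and 22.9% of them differed by 2-fold or more against 6.75% of "_at" probe sets. The "_s_at" class lay between, with 18.4% higher, 21.9% lower and 10.8% at 2-fold or more, and the "_x_at" class had 14.5% and 14.8%. The excess of lower calls in "_a_at" stood in every subset of 2 pairs, with 51 lower and 18 higher without BR100, 50 and 17 without BR200, and 95 and 30 without wild type. The "_at" excess of higher calls was small in 2 of those subsets, at 457 against 418, 372 against 327 and 1308 against 812. Probe sets with 7-digit names were called higher in 16.2% and lower in 21.9%, and 18.1% of these 1324 differed by 2-fold or more against 7.68% of the rest.

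The shares differed less by how many genes a probe set names. Probe sets naming 1 gene (19049 tested) were called higher in 18.6% and lower in 15.7%, those naming several had 177 higher and 147 lower of 931, and those the annotation leaves unnamed 420 higher and 343 lower of 2337. The unnamed ones differed by 2-fold or more in 9.76% against 8.29% of all. The 2 widest unnamed rises were 241955_at (9.83, 9.53 and 9.95 with Express against 5.96, 4.77 and 5.59, a difference of 4.33) and 230265_at (difference 3.88). The 2 widest unnamed falls were 206429_at by 2.78 and 235501_at by 2.73. Probe sets of long noncoding RNA genes (454 tested) were called higher in 21.1% and lower in 7.71%, with a median of 0.16 beside 0.04 over all tested.

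Transcripts of the mitochondrial translation and respiration machinery stood on the Express side. Of 120 probe sets of mitochondrial ribosomal proteins, 53 rose and 7 fell (median 0.26, against 18.6% and 15.6% of all probe sets and a median of 0.04). By gene, 43 of 75 had only higher calls, 4 only lower ones, 1 both and 27 none. MRPL57 rose by 2.19 (8.27, 7.95 and 8.15 against 6.64, 5.69 and 5.49) and MRPS5 by 1.53, while MRPL30 fell by 2.81 and MRPL38 by 2.03. Nuclear genes of the respiratory chain, which builds the proton gradient for ATP synthesis, rose at 49 and fell at 3 of 120 probe sets (median 0.21). COX5B, a subunit of cytochrome c oxidase, rose by 1.63 (5.56, 5.84 and 6.25 against 4.33, 4.20 and 4.22), and the complex I subunit genes NDUFB8 and NDUFB1 and the ATP synthase subunit gene ATP5F1D rose by 1.17, 0.96 and 0.85. These counts fell with any pair left out: the ribosomal list kept 7 higher and 3 lower without BR100, 5 and 4 without BR200, and 26 and 3 without wild type, and the respiratory list 1 and 0, 1 and 0, and 24 and 2. In those subsets, in the same order, 3.64%, 3.19% and 9.83% of all tested probe sets were higher. The ribosomal list had 5.83%, 4.17% and 21.7% higher. The respiratory list had 0.833%, 0.833% and 20%, which is below the share of all tested without BR100 or without BR200. Over those subsets the ribosomal median was 0.26 to 0.30 and the respiratory median 0.23.

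Transcripts of the mitochondrial genome itself went the other way. None of their 10 probe sets rose and 4 fell (median −0.30). COX1, the catalytic subunit of cytochrome c oxidase, read 14.64, 15.42 and 15.84 with Express against 16.03, 16.20 and 16.29 with One-Cycle and fell by 0.87 (SE 0.20, limma adjusted p = 0.0402). ATP6 fell by 0.46, ND4 fell at both of its called probe sets, and COX2 differed by −0.03. With the BR100 or the BR200 pair left out none of the 10 passed, and without wild type 1 did. COX5B and COX1 encode subunits of the same enzyme, and their probe sets named here, 213736_at and 1553538_s_at, had kit differences of opposite sign on these arrays. The COX5B probe set read far below its list's median level of 11.4. Other probe sets of COX5B were not compared, so this is not a result about the 2 genes.

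Genes of small, abundant proteins varied in how far they moved. All 9 metallothionein probe sets, for small metal-binding proteins, rose (median 0.50), with MT1X at 0.87, MT1F at 0.57, MT1G at 0.56 and MT2A at 0.49. All 9 are "_x_at" probe sets of near-identical genes, so they may share signal, and 0 passed without BR100, 0 without BR200 and 5 without wild type. Of 98 probe sets for cytosolic ribosomal proteins 17 rose and 4 fell (median 0.08), close to the share over all probe sets for rises, and RPS10 (2.75) and RPL14 (2.72) had the widest rises. Without a pair this list kept 3 and 0, 2 and 0, and 10 and 1, in the order BR100, BR200 and wild type. Small nuclear ribonucleoprotein genes, which encode the protein cores of the spliceosome, rose at 10 and fell at 4 of 32 (31.2% and 12.5%, median 0.22), with SNRPE at 1.99 and SNRPA at −0.88, and kept 1 and 1 without BR100, 1 and 1 without BR200, and 7 and 2 without wild type.

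Very long messengers stood on the One-Cycle side. Of 129 probe sets of a list of giant transcripts 42 fell (32.6%, against 15.6% of all probe sets) and 13 rose (10.1%, against 18.6%), with a median of −0.14, and by gene 21 of 45 had only lower calls, 2 only higher ones, 8 both and 14 none. PLEC, the cytoskeletal linker plectin, read 3.63, 3.02 and 4.60 at 216971_s_at with Express and 8.31, 8.26 and 9.10 with One-Cycle, a fall whose size is limited by background. SPTAN1, a spectrin, fell by 3.27 and the DNA damage kinase gene ATM by 2.72. KMT2A, a histone methyltransferase gene, went against them at 1565436_s_at, with 5.87, 5.01 and 7.14 against 2.68, 2.44 and 2.91, a rise from a level near background. Lower calls outnumbered higher ones without each pair, at 16 against 4 without BR100, 12 against 8 without BR200 and 30 against 8 without wild type. Transcript lengths were not used here. As a coarse stand-in, genomic gene span (RefSeq, GRCh38.p14, introns included) was cut into 4 bins of equal size over 9893 protein-coding genes. Each gene was read by its tested probe set with the highest level, whereas the giant list used all its tested probe sets. Over these 9893 genes 19.3% were called higher and 10.1% lower (median 0.07). The bin of the shortest genes (0.339 to 13.1 kb) was called higher in 26.0% and lower in 8.85% (median 0.14), the next in 19.1% and 11.3%, the one after in 16.7% and 11.1%, and the bin of the longest (from 73.1 kb) in 15.6% and 9.06% (median 0.05), so that lower calls had no steady order with span.

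Lists with smaller medians or few probe sets follow, beside 18.6% higher and 15.6% lower over all tested. Here and in the lists above, a difference given for a called gene is mostly that of 1 probe set, picked for its size. It need not hold for the other probe sets of the gene. Replication-dependent histone genes, whose messengers end in a stem-loop in place of a poly(A) tail, rose at 5 and fell at 0 of 19 probe sets (median 0.13), led by H1-2 at 1.49 and H2AC17 at 0.93; none passed without BR100 or without BR200, and 3 rose without wild type. Histone variants with polyadenylated messengers rose at 4 and fell at 3 of 20, among them H2AX at 1.48 and H1-10 at −0.50. Nuclear long noncoding RNAs rose at 7 and fell at 3 of 22, with KCNQ1OT1 at 1.64, JPX at 1.35 and FTX at −1.78, and kept 2 and 3, 3 and 2, and 5 and 3 without BR100, BR200 and wild type. Those 22 probe sets came from 6 genes, of which 3 had only higher calls, 1 only lower ones, 1 both and 1 none. Immediate-early and short-lived messengers, which respond fast to stimuli, rose at 19 and fell at 10 of 63 (median 0.12), and EGR1 rose by 1.80, JUN by 1.56 and DUSP1 fell by 1.36. This list kept 5 and 5, 4 and 3, and 10 and 7 in the same order. Zinc finger genes rose at 62 and fell at 55 of 430 (median 0.04). Splicing factors rose at 29 and fell at 32 of 188, with SRSF6 at 2.44 and SRSF1 at −2.37, a pair of serine and arginine-rich regulators. Genes of the signal recognition particle, translocon and oligosaccharyltransferase rose at 13 and fell at 10 of 64, with STT3A at 1.36, SSR1 at 1.07 and SRPRA at −1.74. Proteasome genes, whose product is the target of bortezomib, rose at 7 and fell at 6 of 54 (median 0.06), with PSMB4 at 1.50, PSMB10 at 0.80, PSMB7 at −0.75 and PSMB2 at −0.69. A list of tubulin, actin and actin-associated genes, among them ACTN1, ACTN4 and ACTR3, rose at 5 and fell at 7 of 31. The snoRNA host genes rose at 4 and fell at 5 of 17. With a pair left out the higher and lower calls of these other lists also dropped, for the proteasome to 2 and 1 without BR100, 1 and 0 without BR200, and 4 and 4 without wild type.

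**Figure D4:**
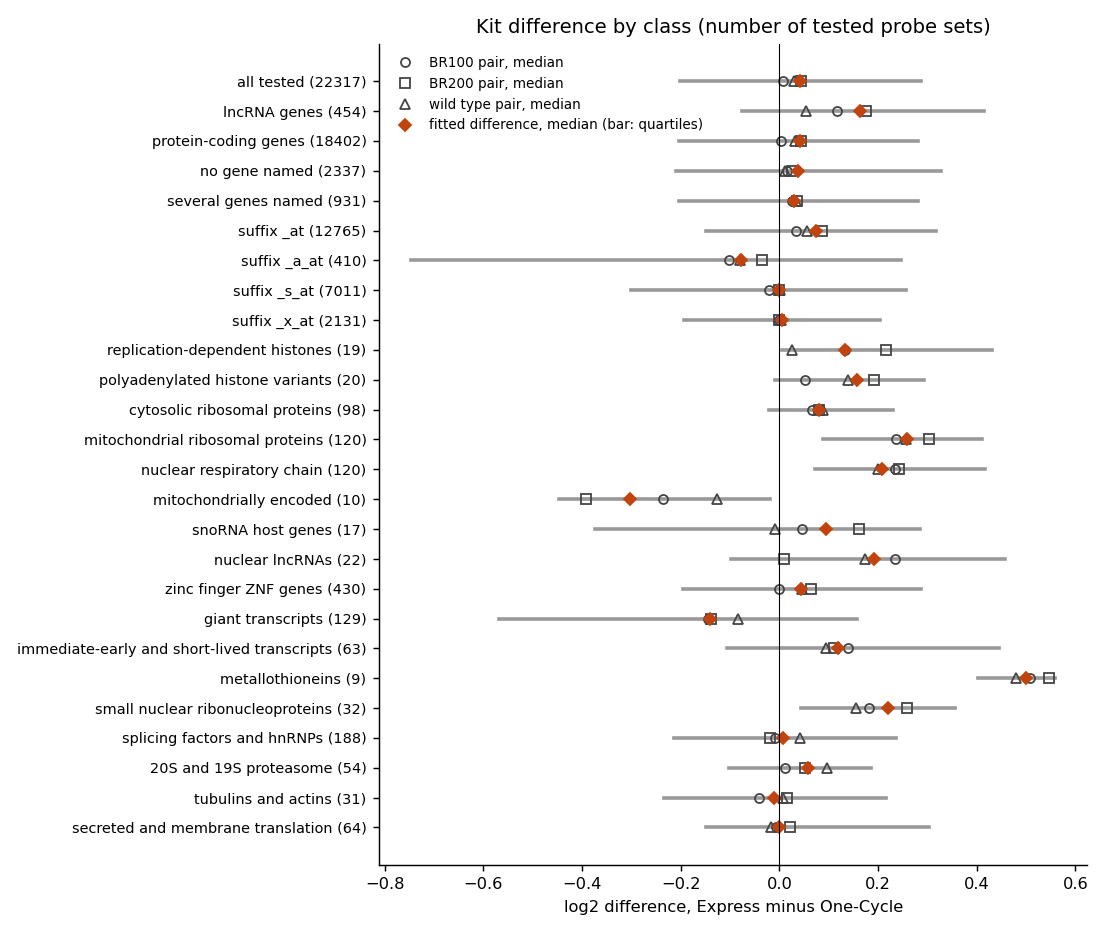
Kit difference (x, log2, Express minus One-Cycle) of the probe sets in each class or transcript list (y, number tested in parentheses), as the median of the fitted differences (red diamond, bar from the lower to the upper quartile) and the median of each variant's pair (open symbols). Metallothioneins, mitochondrial ribosomal proteins and the nuclear respiratory chain lie to the right of all tested probe sets in each of the 3 pairs, and mitochondrially encoded and giant transcripts to the left.

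Some probe sets were measured in 1 group only. With a level below 4 taken as near background, 64 probe sets were at 4 or above on all 3 Express arrays and below 4 on all 3 One-Cycle arrays, and 114 were the other way round. With a threshold of 3 the counts were 37 and 63. RAB12, a small GTPase gene, read 8.10, 7.48 and 8.18 at 235059_at with Express against 3.20, 2.67 and 3.55, and KIF13A, a kinesin, read 7.93, 7.96 and 7.85 at 237444_at against 3.70, 3.65 and 3.75. CTNNB1, which encodes β-catenin, read 7.24, 6.66 and 5.52 at 1554411_at with Express against 2.50 on all 3 One-Cycle arrays, while its 201533_at read 11.60 and 10.81 in the mean and rose by 0.79. In the other direction HSPD1, a mitochondrial chaperone gene, read 2.64, 3.15 and 3.22 at 241716_at with Express against 7.61, 6.69 and 7.89, and its 200807_s_at differed by 0.01. ITGB4, an integrin of hemidesmosomes, read 3.04, 3.31 and 3.73 at 204989_s_at against 7.03, 6.95 and 7.62, and RNF6 and SETD5 had such probe sets too. For these the size of the difference is limited by background and is not given.

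At no probe set did the kit difference of wild type pass a test against that of the resistant variants. The limma interaction, which has 1 residual degree of freedom and takes the lone wild type pair to vary like the resistant ones, called 0 of 22317 (0%) with a smallest adjusted p of 0.56, and 1987 had an unadjusted p under 0.05. Without the filter on low values the same test called 1396, of which 1149 were probe sets below that filter. Among the widest estimates, LINC00662 had a kit difference of 2.46 in wild type and of 0.08 in BR100 and BR200 (5.38, 5.21 and 8.68 with Express against 5.23, 5.21 and 6.22), and PTPN11, which encodes the phosphatase SHP2, 1.10 and −1.25. PLCD3, a phospholipase, had −2.88 and −0.67, and MAVS, an adaptor of antiviral signalling, −3.94 and −2.22. None of these estimates passed after adjustment (limma adjusted p = 0.56 for all 4).

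The design also shows whether the variants differed from wild type alike with either kit. The difference of BR100 from wild type had a correlation of 0.942 between Express and One-Cycle arrays across 22317 probe sets, and the SD of the Express differences was 0.972 times that of One-Cycle. For BR200 the values were 0.933 and 0.982. Both contrasts share the wild type array within a kit, and the points share probes and 4 arrays each. Of 7403 probe sets with a 2-fold BR100 difference in either kit, 98.7% had the same sign in both, and for BR200 98.3% of 6540. No probe set differed by 2-fold in opposite directions for BR100, and 2 did for BR200. Among the 412 probe sets with a kit difference of at least 2 log2 units the correlations were 0.761 and 0.729, and the same sign held for 88.3% of 188 and 83.0% of 171. Among 14581 probe sets at 6 or above on all arrays they were 0.961 and 0.952.

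**Figure D5:**
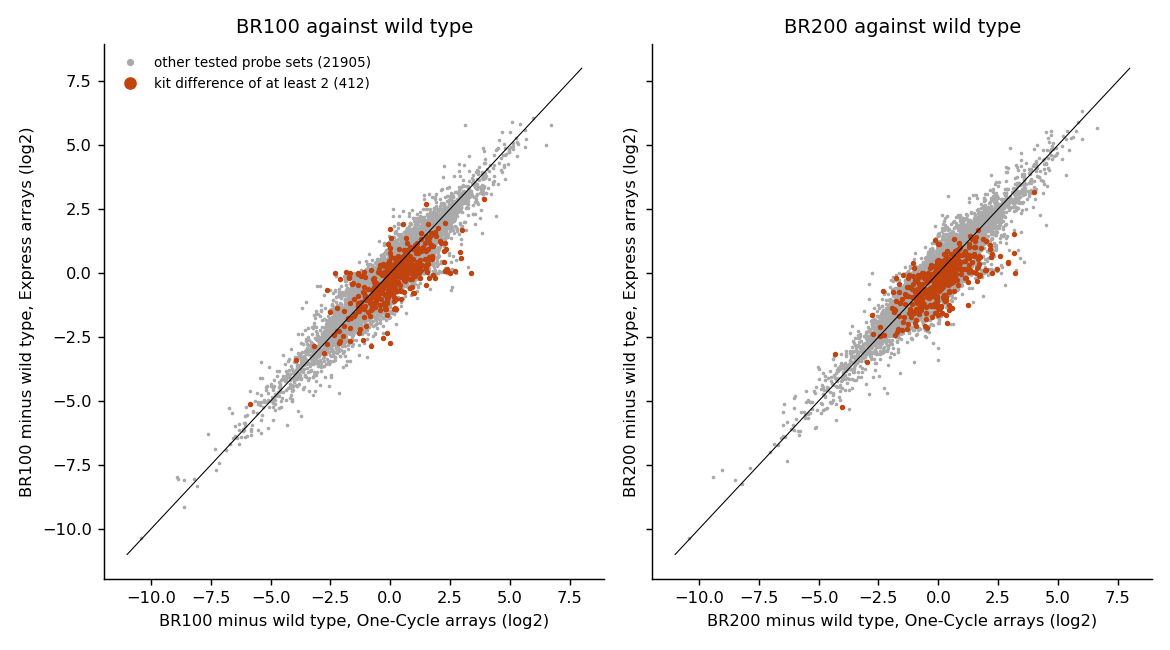
Difference of BR100 (left) and BR200 (right) from wild type measured with One-Cycle (x, log2) and with Express (y, log2), 1 point per tested probe set, with the line of equality and the 412 probe sets with a kit difference of at least 2 log2 units coloured. The points follow the line (correlation 0.942 and 0.933), and the coloured ones scatter more widely (0.761 and 0.729).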

How the data were processed

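The authors deposited log2 expression values made with GCRMA, per the labels and the submitters' processing notes; its version and any other processing setting are not given in the sources used here. GCRMA corrects background, normalizes between arrays and sums probes into probe sets, and values near its lowest level (2.23) have little order. Values were used as deposited, and a scanner file was not used here.

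Express minus One-Cycle was fitted per probe set with limma 3.58.1 (R 4.3.3; lmFit, eBayes) with cell variant as a block, over 22317 probe sets at 4 or more on at least 2 of 6 arrays, without control probe sets, and Benjamini-Hochberg adjusted p under 0.05 was the threshold. The pairing comes from the labels, which give each variant 1 array per kit. Nothing says that arrays came from separate cultures, so p-values measure only the spread between these arrays, which may be technical, and the number of arrays limits precision. A simulation with the arrays' own levels and a spread drawn from the fit changed 200 of 22317 probe sets. It recovered 0.896% of 1.5-fold, 44.2% of 2-fold and 87.3% of 4-fold changes, and called 3.7 of 22117 unchanged probe sets on average. Far more probe sets were called in the data than were changed there, so these rates need not hold for the data. Gaps between control probe sets were tested by exact two-sided sign flips over 3 pairs. Probe sets were named from the platform annotation, with 41091 naming 1 gene, 1801 several and 11721 none outside the controls, and updated through RefSeq (GRCh38.p14), where 41043 matched.

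Named genes are the 15 widest rises and 15 widest falls among called probe sets that name 1 gene and are at 4 or more on all 6 arrays, 1 probe set per gene, the 10 genes with the widest opposite calls, up to 4 called members per list, the 5 highest-level probe sets near background in 1 kit each way, the 5 widest interactions each way and 2 unnamed probe sets each way. Other genes and probe sets were named after their values were seen, as companions of these or to give an uncalled value. Members, lists and rules were chosen with earlier results of these data known, so lists are described without tests. Alternatives covered the filter, the block, array centring, quantile normalization, the eBayes trend, other probe set choices, a lower background threshold and each pair left out. Quantile normalization of class medians was chosen after seeing the data.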

Additional observations from a re-analysis of the deposited data

Results flagged for a closer look

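The gap between the 3′ and 5′ probe sets of the phe spike differed between the kits in opposite directions by variant: Express minus One-Cycle was 0.10 in wild type and −0.11 and −0.29 in BR100 and BR200. The single wild type pair went one way and both resistant pairs the other. The difference between them was not tested. The second set of phe probe sets did not show it: there Express minus One-Cycle was −0.32 and −0.35 in BR100 and BR200 and −0.12 in wild type.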

How the results depend on the processing

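The count of 7625 called probe sets depended on the settings. It was 437 without a filter on low values, 3520 with 1 probe set per gene (65.7% higher with Express, against 54.4%), 3949 after averaging each gene's probe sets, 3842 without "_s_at" and "_x_at" probe sets, and 1602 to 4270 with 1 pair left out. Without the replicate block, which pairs arrays by variant, 682 were called, 40.5% of them higher with Express. No called probe set changed sign under array centring or quantile normalization. The other settings could not show a change of sign. The filters and the block leave the fitted difference of a probe set as it is. All 7625 called probe sets differed in the same direction in all 3 pairs, so leaving out a pair could not reverse one. Array centring, quantile normalization and the eBayes trend kept 95.5%, 96.2% and 96.3% of the calls. The interaction called 1396 without the filter. Genes with opposite calls numbered 161 without "_s_at" and "_x_at", and 33 to 175 with a pair left out. Probe sets near background in 1 kit numbered 37 (One-Cycle) and 63 (Express) at a threshold of 3.

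Several class medians moved by more than their spread. With arrays centred, the median was 0.0463 for "_at", −0.0301 for "_s_at", 0.00938 for unnamed, 0.180 for the respiratory chain and 0.0510 for cytosolic ribosomal proteins. With quantile normalization it was 0.0471 for unnamed and 0.0634 for cytosolic ribosomal proteins. At 6 or more on all arrays it was 0.0120 for "_s_at" and −0.0727 for giant transcripts. With a pair left out, medians ran from 0.0200 to 0.0430 for unnamed, 0.257 to 0.299 for mitochondrial ribosomal proteins, 0.227 to 0.232 for the respiratory chain and −0.167 to −0.0899 for giant transcripts. The sign of the "_s_at" median, −0.00167 as deposited, changed with the filter. Beyond fewer arrays or features tested, the cause of these changes was not tested. Differences at low signal are limited by background.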
